A study of Mus musculus with 15 samples.

Results

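Chromatin accessibility in 3 colon cancer organoid lines grown from liver metastases of transplantation round 1 (Met1) was compared with that in 6 lines grown from primary colon tumours of later rounds, 3 of round 2 (Primary2) and 3 of round 3 (Primary3). These 9 lines were chosen by their sample titles from the 15 lines of the series, and all 43020 regions of the shared table were considered. Each line is mouse, of genotype AKP, and came from C57Bl6 recipient mice. The labels do not spell out the alleles behind this name. The organoids had been transplanted into the colon of immunocompetent mice, and new organoids were started from the resulting primary tumours and liver metastases, for 3 rounds. None of the 15 lines of the series is a primary line of round 1, so round and origin cannot be told apart in this comparison. The labels do not state the descent of any line from another. Replicates are separate organoid lines. An edgeR p-value reflects how far lines scatter within the groups of all 15 lines, part of which may be technical. Taken group by group, this relative spread beyond counting noise was 0.38 in Met1, 0.25 in Primary2 and 0.33 in Primary3. It was 0.45 and 0.27 in the metastasis lines of rounds 2 and 3.

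Colon tumours spread to the liver mainly through the portal vein, and the cells that grow out there keep most of the driver mutations of the primary tumour, so that differences between both sites are often sought in gene regulation. Promoters and enhancers that are bound by transcription factors are depleted of nucleosomes. ATAC-seq measures this state with a transposase that inserts sequencing adapters into open DNA, so that the count of reads in a region reflects how open it is in the cells of a library. The signal is given as CPM (counts scaled to a fixed library size) after TMM scaling. Regions are named by the authors' peak names and by their mm9 coordinates as the table gives them, because a gene annotation of mm9 was not used here. For the same reason the cell type was not checked against marker loci.

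The 9 libraries differed widely in depth. Their counts in regions summed to 790233, 3161464 and 3342414 in Met1 replicates 1 to 3, to between 1235330 and 1823141 in Primary2, and to 3051139, 285633 and 5916109 in Primary3. In the shallowest library, Primary3 replicate 2, 10020 regions held no count. Across the 39952 tested regions, Met1 replicates 2 and 3 correlated at r = 0.897 in log2 CPM, and Met1 replicate 1 correlated with them at 0.723 and 0.719. Met1 replicate 3 correlated better with 5 of the 6 primary lines (0.751 to 0.831) than with Met1 replicate 1, and Met1 replicate 2 did so with 4 of the 6 (0.728 to 0.782). Met1 replicate 1 also held less of its signal in strong regions, with 10.8% of its counts in the 1000 strongest regions against 14.1% to 15.4% in the other 8 lines. The part of depth and of this narrower signal range in the results was not tested beyond leaving the libraries out.

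Of the 39952 regions, 3784 (9.47%) differed between Met1 and the mean of both primary groups at an adjusted p under 0.05 in edgeR's quasi-likelihood test. Of these, 1809 (4.53%) were more accessible and 1975 (4.94%) less accessible in Met1. The direction with more regions turned with scaling by total counts, to 2101 higher and 1776 lower. DESeq2, which changes both the scaling and the test, gave 2416 higher and 2216 lower. The called changes were mostly large, with at least a 2-fold difference at 1674 of the increases and 1625 of the decreases. At least a 4-fold one was seen at 719 and 464. With so few lines mainly large estimates pass the threshold, so these sizes follow in part from it. The 3 Met1 lines lay above all 6 primary lines at 2809 regions (7.03%) and below all of them at 2576 (6.45%), called or not. Such separation held at 1343 of the 1809 called increases and at 1521 of the 1975 called decreases. The remaining calls were thus made although a Met1 line overlapped a primary line.

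The count rested unevenly on single lines. Without Met1 replicate 2 it fell to 1162 regions (473 higher and 689 lower), of which 1136 were among the 3784. It was 2215 without Primary3 replicate 1. Leaving out the shallow Met1 replicate 1 gave 3542 regions, and leaving out the shallowest library, Primary3 replicate 2, gave 3955. With both of these left out together, 3687 regions were called, 1750 higher and 1937 lower.

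**Figure D1:**
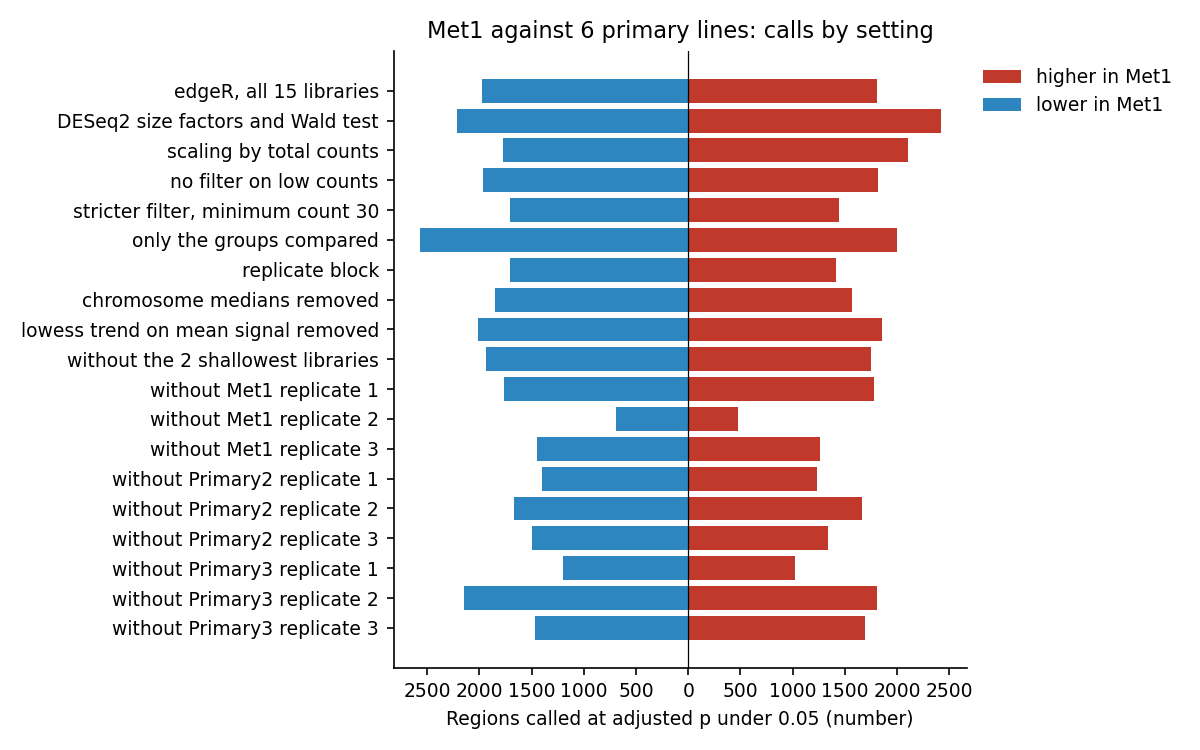
Number of regions called for Met1 against the 6 primary lines (horizontal axis; higher in Met1 to the right, lower to the left) in the fit of all 15 libraries and under each alternative setting or left-out line (vertical axis). The bars were shortest without Met1 replicate 2, at 473 and 689 regions.

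Regions called lower in Met1 had a high mean signal over the 15 libraries. Their median was 4.83 on the log2 CPM scale, against 3.79 over all tested regions and 3.35 at regions called higher. This mean includes the Met1 values behind the calls, so the direction of a call enters it in part. Strong signal also makes a decrease easier to call. The filter on low counts keeps a region that reaches its minimum in as many libraries as a group holds. A weak region can thus enter through Met1 alone. The part of these points in the shares below was not tested. In the weakest quartile of mean signal 1.30% of regions were called lower, and this share rose through 3.13% and 5.67% to 9.67% in the strongest quartile. Called increases took the opposite course, from 6.13% in the weakest quartile through 5.38% and 4.28% to 2.33% in the strongest. After a smooth trend on mean signal was removed from each library, the share of decreases still ran from 2.74% to 7.87%, whereas that of increases turned over and ran from 3.68% to 5.74%. Only the course of the decreases therefore kept its direction in that setting. The median width was 868 bp for regions called lower, 772 bp for those called higher and 791 bp for all tested regions.

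**Figure D2:**
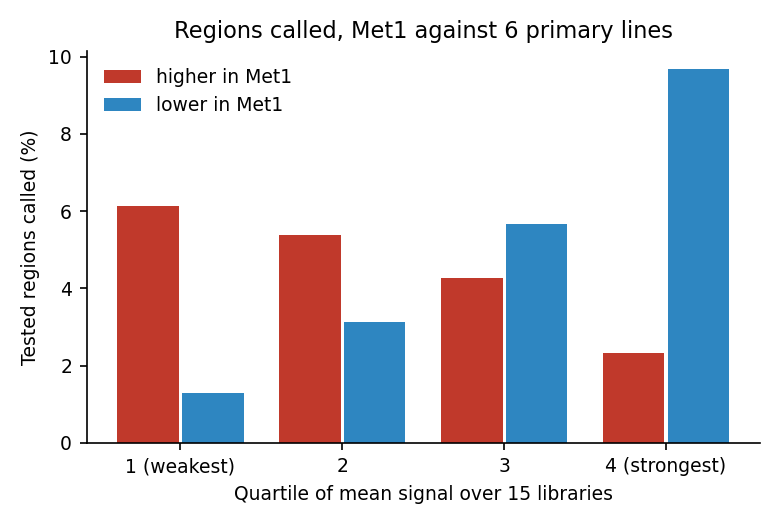
Share of tested regions called higher (red) or lower (blue) in Met1 than in the 6 primary lines, in percent (vertical axis), by quartile of mean log2 CPM over the 15 libraries (horizontal axis). Decreases ran from 1.30% to 9.67% of regions and increases from 6.13% to 2.33%.

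Single regions are described below by a rule that took the 12 largest increases and the 12 largest decreases among called regions whose mean signal reached the median of all tested regions and that showed no overlap between the 3 Met1 and the 6 primary lines. There were 464 increases and 1216 decreases to choose from. The 12 increases had log2 fold changes from 2.56 to 3.44 with standard errors between 0.28 and 0.55, and the 12 decreases from -3.83 to -3.23 with standard errors between 0.39 and 0.68. Of the 12 increases, picked by size, 6 lay on chromosome 10, which holds 1913 of the 39952 tested regions and 145 of the 1809 called increases.

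The largest increase was at peak_82029 on chromosome 6 (53715733 to 53717045). Its signal was 66.8, 68.2 and 97.6 CPM in the Met1 lines, 11.6, 10.4 and 5.65 in Primary2 and 2.80, 19.1 and 4.99 in Primary3. Each Met1 line thus held more than 3 times the signal of the highest primary line. On the log2 scale Met1 was higher by 3.44 ± 0.52 (SE; edgeR adjusted p = 0.000312). Among later metastasis lines, Met2 replicate 1 held 91.0 CPM and the other 5 lines between 7.25 and 12.1, so that a single later line had the level of Met1 and the others that of the primary lines. Later lines as a whole fell by 2.11 on the log2 scale from Met1 (edgeR adjusted p = 0.00705).

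At peak_8840 on chromosome 10 (82836847 to 82837639) the increase was shared by each metastasis line of the series. It held 46.4, 57.4 and 59.4 CPM in Met1, 8.69, 6.56 and 8.87 in Primary2 and 3.85, 6.37 and 3.61 in Primary3. The 6 later metastasis lines ranged from 36.3 to 66.8 CPM, and their difference from Met1 was not called (log2 fold change -0.17, edgeR adjusted p = 0.751). The log2 fold change of Met1 over primary lines, 3.28 ± 0.28 (edgeR adjusted p = 1.05e-06), had the smallest adjusted p of the 24 regions.

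Next by size were peak_68880 on chromosome 4 (138460303 to 138462004, log2 fold change 3.25), peak_6266 on chromosome 10 (9277060 to 9277979, 3.11) and peak_65892 on chromosome 4 (87781770 to 87782688, 3.07). At peak_68880 the Met1 lines held 31.7, 76.1 and 59.7 CPM, and no primary line exceeded 10.5. The later metastasis lines held between 41.9 and 134.8 CPM there. At peak_6266 Met1 held 48.7, 80.6 and 86.8 CPM, against 0.81 to 20.3 in the primary lines and 4.86 to 28.7 in the later metastasis lines. Thus peak_68880 was open in metastasis lines of each round and peak_6266 in Met1. The log2 fold change of later lines over Met1 was called at peak_6266 (-2.09, edgeR adjusted p = 0.00229). It was not called at peak_68880 (0.57, edgeR adjusted p = 0.252). At peak_65892 Met1 held 40.8, 59.9 and 87.4 CPM, Primary2 10.4, 28.4 and 6.45, and Primary3 2.45 to 6.37. Against Primary2 alone this region was not called (log2 fold change 2.03, edgeR adjusted p = 0.0589). Met2 replicate 1 held 62.4 CPM there, within the range of Met1, and the other later metastasis lines 5.34 to 21.4.

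The other increases were peak_6576, peak_9961, peak_9708 and peak_7520 on chromosome 10 (starts 19888847, 120813171, 111360746 and 59490225), peak_18590 on chromosome 12 (start 16759045), peak_84122 on chromosome 6 (start 94584967) and peak_43984 on chromosome 18 (start 11898933). Their log2 fold changes lay between 2.56 and 2.90. peak_43984 stood out for even Met1 lines, with 36.2, 35.2 and 33.4 CPM, against 8.11, 6.56 and 3.23 in Primary2 and 3.85, 0 and 6.53 in Primary3. The value of 0 is from the library of 285633 counts. The region was higher in Met1 although chromosome 18 as a whole was lower there. Of the 12 increases, 5 were called lower in later metastasis lines than in Met1 (peak_82029, peak_6266, peak_65892, peak_6576 and peak_84122). The other 7 were not called between Met1 and later lines. Of the 5, later lines were still called above primary lines at peak_6576 (log2 fold change 1.75, edgeR adjusted p = 0.000798) and peak_84122 (1.27, edgeR adjusted p = 0.00716), and not at the rest. The log2 fold change of Met1 over primary lines at peak_6576 was 3.52 without Primary3 replicate 3. That at peak_9708 was 3.25 without Primary2 replicate 2, against 2.90 and 2.65 with all lines.

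The largest decrease was at peak_95287 on chromosome 8 (24120352 to 24121273). It held 6.79, 1.59 and 2.39 CPM in Met1, 25.5, 10.4 and 51.6 in Primary2 and 65.4, 41.4 and 61.2 in Primary3. The primary lines varied among themselves, yet the lowest of them stood above each Met1 line. On the log2 scale the difference was -3.83 ± 0.68 (SE; edgeR adjusted p = 0.00112).

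At peak_88753 on chromosome 7 (35414751 to 35416108), the strongest of the 12 in primary lines, the signal was 22.6, 4.76 and 11.9 CPM in Met1, 109, 51.4 and 121 in Primary2 and 224, 223 and 165 in Primary3. Of the later metastasis lines, Met2 replicate 1 was near Met1, at 25.2 CPM, and the other 5 were in the range of the primary lines, at 90.5 to 189.4 CPM. The region fell by 3.60 on the log2 scale in Met1 (edgeR adjusted p = 0.000566), and later metastasis lines were higher than Met1 by 3.44 (edgeR adjusted p = 0.000738).

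A different course was seen at peak_38258 on chromosome 16 (92777978 to 92779070). It held 6.79, 3.49 and 8.95 CPM in Met1, 46.3, 63.5 and 67.0 in Primary2 and 86.7, 82.8 and 92.3 in Primary3, and between 2.80 and 13.9 in the 6 later metastasis lines. Each metastasis line of the 3 rounds was therefore below each primary line. The log2 fold change was -3.49 ± 0.40 (edgeR adjusted p = 1.81e-05), and the difference between later lines and Met1 was not called (0.49, edgeR adjusted p = 0.517).

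peak_47127 on chromosome 18 (78438872 to 78439939, log2 fold change -3.56) was low in the Met1 lines (11.3, 5.39 and 9.25 CPM) and in 5 of the 6 later metastasis lines (7.90 to 16.1 CPM), while Met2 replicate 1 held 77.7 CPM. The primary lines held between 71.7 and 116.4. Met2 replicate 1, which had matched Met1 at peak_82029, thus had the primary level here.

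At peak_18414 on chromosome 12 (9862477 to 9863284) and peak_78278 on chromosome 5 (137154528 to 137155263), most later metastasis lines reached the range of primary lines or more. peak_18414 held 6.79, 3.17 and 2.98 CPM in Met1, 13.1 to 78.0 in primary lines and 43.1 to 115.3 in later metastasis lines, which were 4.33 higher than Met1 on the log2 scale (edgeR adjusted p = 1.39e-05). peak_78278 held 9.06, 2.22 and 4.48 CPM in Met1, 35.5 to 55.9 in primary lines and 62.6 to 97.8 in Met3. The Met2 lines held 14.6, 38.6 and 47.5 CPM there, so that Met2 replicate 1 stayed below the primary lines.

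The remaining decreases were peak_38116 on chromosome 16 (start 91587956), peak_98753 and peak_98738 on chromosome 8 (starts 111346616 and 111269463), peak_92221 and peak_90673 on chromosome 7 (starts 123627733 and 88464487) and peak_52687 on chromosome 2 (start 33076768). Their log2 fold changes lay between -3.56 and -3.23. Of the 12 decreases, 10 were higher in later metastasis lines than in Met1, the exceptions being peak_38258 and peak_47127. Of these 10, later lines were still called below primary lines at peak_38116 (log2 fold change -1.58, edgeR adjusted p = 0.00284) and peak_90673 (-1.17, edgeR adjusted p = 0.00788). They were called above primary lines at peak_18414 (0.90, edgeR adjusted p = 0.0277) and not called at the rest. Met1 replicate 1, the line with the narrower signal range, was the highest of the 3 Met1 lines at 11 of the 12 decreases and the lowest at 9 of the 12 increases. Without it the value at peak_92221 was -4.07, against -3.47 with it.

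**Figure D3:**
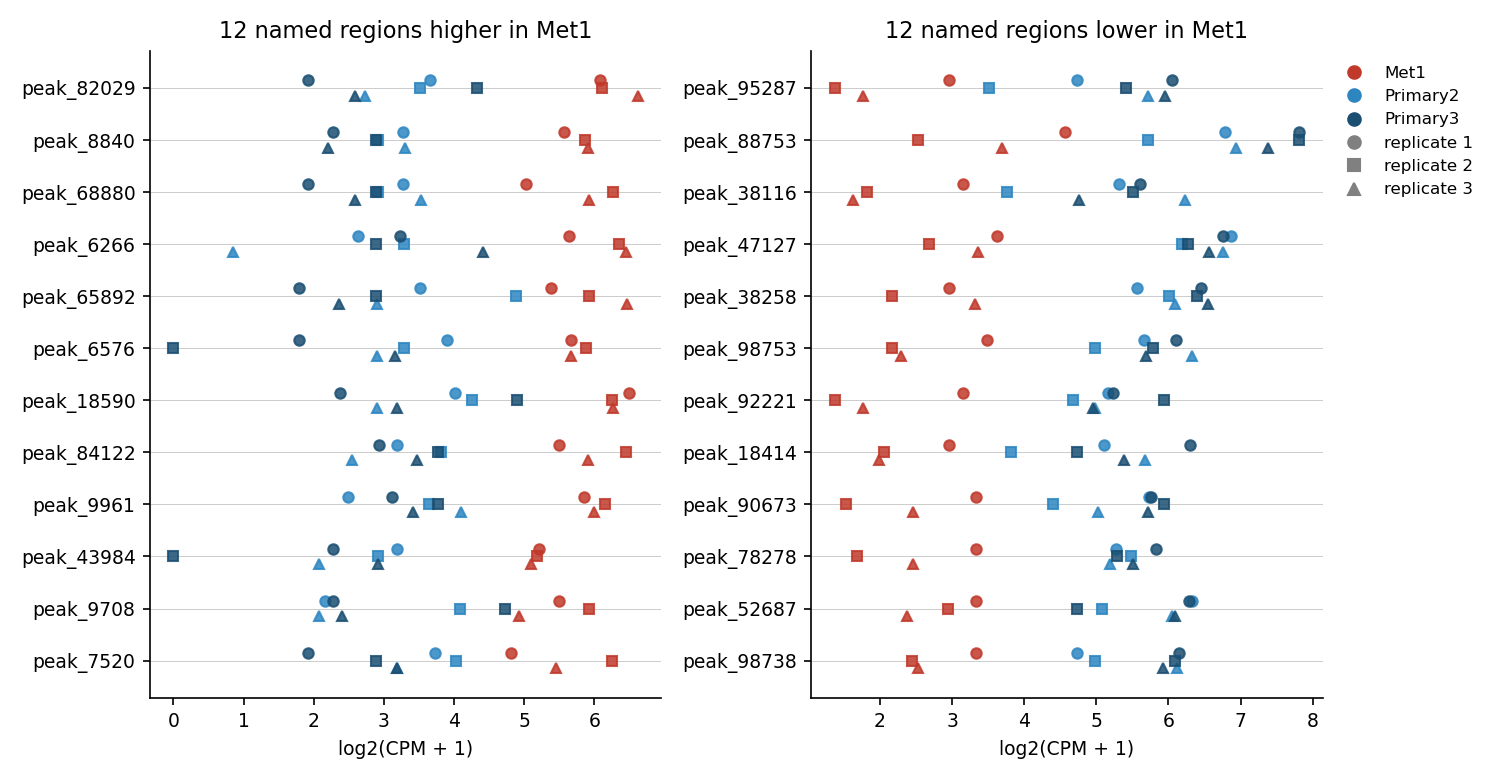
Signal of the 12 largest increases (left) and 12 largest decreases (right) in Met1, as log2(CPM + 1) (horizontal axis), for each of the 9 lines; rows are regions, colours are groups and symbols are replicates. In each row the 3 Met1 lines lie to one side of the 6 primary lines, by the rule that chose the regions.

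Called regions lay near others called in the same direction. Of 1605 higher regions whose nearest tested region lay within 50 kb, 343 (21.4%) had a neighbour that was also called higher and 11 (0.69%) a neighbour called lower. Over all 36268 regions with such a neighbour, 4.43% of neighbours were called higher. Of 1866 lower regions, 424 (22.7%) had a neighbour called lower and 5 (0.27%) a neighbour called higher, where 5.37% of all neighbours were called lower. Neighbouring regions can share an enhancer cluster, a gene or a stretch of changed DNA content, and these were not told apart here.

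Unbroken runs of at least 6 tested regions called in the same direction numbered 4 for increases and 4 for decreases. The length of 6 was chosen after the data were seen, so these runs are a description. The longest held 7 regions over 152 kb of chromosome 6 (4932637 to 5084768), each higher in Met1, with log2 fold changes from 1.65 to 4.39. Its mean signal was 29.1, 38.2 and 22.6 CPM in the Met1 lines and between 3.92 and 10.2 in the primary lines. Each of its 7 regions separated the 3 Met1 from the 6 primary lines.

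Another run of increases held 6 regions on chromosome 9 (7571553 to 7692791), with mean signals of 18.9, 30.3 and 26.3 CPM in Met1 and 1.59 to 10.9 in the primary lines. In this run 5 of the 6 regions separated the Met1 from the primary lines. Between Met1 and later metastasis lines, which held 4.54 to 15.7 CPM, 4 of the 6 regions differed. A run of 6 on chromosome 1 (129799220 to 129887332) was even over the metastasis lines instead, with 16.1 to 21.1 CPM in Met1, 16.2 to 28.4 in later metastasis lines and 4.78 to 7.53 in primary lines. Each of its 6 regions separated the Met1 from the primary lines, and none differed between Met1 and later lines. The last run of increases, on chromosome 15 (49984000 to 51686203), was highest in Met1 replicate 2, at 42.5 CPM. The other Met1 lines held 16.0 and 17.8 CPM and primary lines up to 11.1. Only 3 of its 6 regions separated the Met1 from the primary lines.

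Among runs of decreases, 6 regions within 23.9 kb of chromosome 11 (54014726 to 54038586) had mean signals of 20.8, 9.62 and 26.7 CPM in Met1 and 42.5 to 77.3 in the primary lines, and each of the 6 separated the groups. A second run on chromosome 11 (100066613 to 100117419) held 23.6, 15.2 and 22.1 CPM in Met1 and 48.0 to 78.4 in the primary lines. Of its 6 regions, 5 separated the groups. On chromosome 12 (17733251 to 17764321) a run of 6 held 26.8, 24.3 and 38.7 CPM against 63.8 to 73.4 in the primary lines, the narrowest primary range of the 4 runs of decreases. The last run, on chromosome 16 (26065000 to 26250920), held 14.5, 5.50 and 11.0 CPM in Met1 and 26.5 to 51.8 in primary lines. Later metastasis lines held up to 47.6 CPM in it, and 5 of its 6 regions were called between them and Met1. Only 3 of its 6 regions separated the Met1 from the primary lines, against all 6 in the run on chromosome 12.

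Whole chromosomes also differed in their median signal, which is a summary of the regions that lie on them. For each line and chromosome the median log2 CPM of its regions was expressed relative to the mean of the 9 lines and to the line's own median over all regions. Of 20 chromosomes, 12 differed between the 3 Met1 and the 6 primary lines in a 2-sided exact permutation test (84 assignments), each with the smallest p the design can give (0.0238, adjusted p = 0.0397). Chromosomes 1, 6, 9, 10 and 13 were higher in Met1, and chromosomes 2, 8, 11, 12, 17, 18 and 19 lower. At each of the 12 the Met1 lines lay beyond all 6 primary lines. Chromosome 12 (-0.10) no longer passed after the trend on mean signal was removed (-0.09) or with a stricter filter (-0.09).

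The largest shift of a chromosome median was a decrease on chromosome 18. There the Met1 lines stood at -0.31, -0.31 and -0.23 on the log2 scale. The Primary2 lines stood at 0.28, 0.17 and 0.09 and the Primary3 lines at 0.10, 0.07 and 0.14. Met1 lay 0.42 below the primary lines. All 9 windows of 10 Mb on this chromosome were lower in Met1, by 0.22 to 0.69, and in 7 of them no Met1 line overlapped a primary line. Of the 1455 tested regions there, 185 (12.7%) were called lower and 26 (1.79%) higher, against 4.94% and 4.53% over all chromosomes. Chromosome 8 followed, at -0.16, -0.26 and -0.18 in Met1 against -0.05, -0.02 and 0.17 in Primary2 and 0.13, 0.18 and 0.20 in Primary3. All 14 windows had a lower mean in Met1, with differences from -0.96 to -0.11. The lowest of these lay below each window of chromosome 18. In 6 of the 14 windows no Met1 line overlapped a primary line. Of the 1764 tested regions on chromosome 8, 152 (8.62%) were called lower and 29 (1.64%) higher.

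The largest increase of a chromosome median was on chromosome 6. Its Met1 lines stood at 0.38, 0.31 and 0.05 and its primary lines between -0.18 and -0.07. Met1 replicate 3 was far below the other Met1 lines, though still above each primary line. The difference was 0.36, and all 15 windows had a higher mean in Met1, by 0.21 to 0.83. In 9 of them no Met1 line overlapped a primary line. In each window from 90000001 on the groups overlapped. There Met1 replicate 3 stood between -0.12 and 0.01, and Met1 replicates 1 and 2 lay above all primary lines. The first window, up to 10000000, had the highest value, and it holds the run of 7 regions described above. On chromosome 6, 245 regions (10.1%) were called higher and 49 (2.02%) lower.

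Later metastasis lines, set on the same scale, were split on chromosome 6. Met2 replicates 1 and 2 stood at 0.24 and 0.30 and Met3 replicates 1 and 2 at -0.04 and 0.17, each above all 6 primary lines, while Met2 replicate 3 and Met3 replicate 3 stood at -0.15 and -0.18, within or below their range. On chromosome 18, in contrast, all 6 later lines lay between -0.32 and -0.25. On chromosome 8 they lay between -0.27 and -0.17.

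Chromosome 15 had a similar mean difference (0.25) but did not pass the test (exact permutation p = 0.143, adjusted p = 0.19). Met1 replicate 2 stood at 0.50 and replicates 1 and 3 at 0.00 and 0.01, with the primary lines between -0.19 and 0.15. In all 11 windows of the chromosome Met1 replicate 2 was above the other 8 lines. Of the 1839 tested regions on chromosome 15, 179 (9.73%) were called higher and 57 (3.10%) lower with all lines. Over all chromosomes these shares were 4.53% and 4.94%. Without this line 23 regions of chromosome 15 were called higher and 28 lower. Leaving out this line also lowered the count over all chromosomes, from 1809 to 473 higher regions.

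Calls were also made after each library's chromosome medians were removed, which by construction evens out the directions on a chromosome. Chromosome 6 then had 130 higher and 108 lower regions in place of 245 and 49, and chromosome 18 had 75 and 78 in place of 26 and 185. Without Met1 replicate 2, which lowers the overall count, 73 higher and 19 lower regions were called on chromosome 6, and 6 and 74 on chromosome 18. With medians removed, over all chromosomes 3414 regions were then called, 1566 higher and 1848 lower, and 2875 of them were among the 3784. A change in DNA copy number and a change in accessibility along a chromosome cannot be told apart in these counts.

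**Figure D4:**
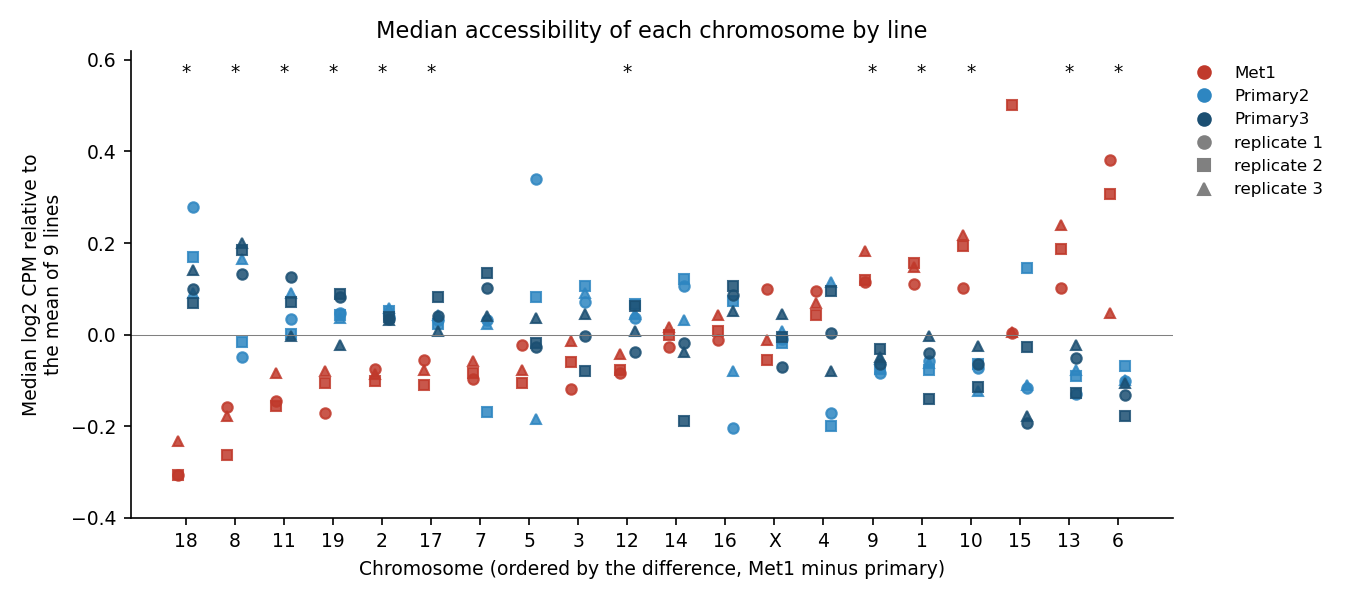
Median log2 CPM of each chromosome relative to the mean of the 9 lines and to each line's own median (vertical axis), with chromosomes ordered by the difference of Met1 minus primary lines (horizontal axis); points are lines, and asterisks mark adjusted p under 0.05 in the exact permutation test. Chromosomes 18 and 6 lie at the ends, and on chromosome 15 a single Met1 line stands at 0.50.

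Each primary group was then taken alone. Against Primary2, 1706 regions (4.27%) were called, 583 higher (1.46%) and 1123 lower (2.81%) in Met1. Against Primary3, 2760 regions (6.91%) were called, 1157 higher (2.9%) and 1603 lower (4.01%). DESeq2 gave 1927 higher and 1774 lower regions against Primary3, so the excess of decreases in that comparison did not hold there, and 1080 higher and 1439 lower against Primary2. These comparisons share the Met1 lines. Whether their effects differ is the difference between the primary groups, which edgeR called at 0 regions (2646 at an unadjusted p under 0.05) and DESeq2 at 54, and edgeR called 7 without Primary2 replicate 3.

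Single lines again carried many of these calls. Against Primary2 the count was 403 without Met1 replicate 2 and 530, 1104 and 644 without Primary2 replicates 1, 2 and 3. Against Primary3 it was 927 without Met1 replicate 2 and 704 and 1457 without Primary3 replicates 1 and 3.

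For each primary group alone, regions were named by the same rule except that the 3 Met1 lines had to lie beyond the 3 lines of that group only. The largest increases over Primary2 were at peak_6266 (log2 fold change 3.79 ± 0.58, SE, edgeR adjusted p = 0.000673), peak_82457 on chromosome 6 (66890745 to 66891435, 3.48 ± 0.60) and peak_82029 (3.04 ± 0.63). At peak_82457 the Met1 lines held 39.6, 28.9 and 28 CPM, the Primary2 lines 0, 3.28 and 5.65 and the Primary3 lines 12.2, 6.37 and 14.4. Its value was 2.86 without Primary2 replicate 1 and 4.19 without Primary2 replicate 3, and that at peak_6266 was 4.47 without Primary2 replicate 2. The largest decreases against Primary2 were at peak_38116 (-3.61 ± 0.59, and -2.91 without Primary2 replicate 3), peak_47127 (-3.59 ± 0.52) and peak_98753 (-3.42 ± 0.43).

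Against Primary3 the largest increases were at peak_59720 on chromosome 3 (35032351 to 35033072, log2 fold change 4.12 ± 0.74), peak_65892 (4.11 ± 0.73) and peak_76658 on chromosome 5 (119501969 to 119503138, 3.96 ± 0.83). At peak_76658 the Met1 lines held 56.6, 79.6 and 98.8 CPM and the Primary3 lines 6.99, 6.37 and 3.44. The Primary2 lines were split there, at 57.9, 70.0 and 3.23 CPM, so 2 of them had the level of Met1. peak_59720 showed the same split, with 27.2, 89.1 and 62.1 CPM in Met1, 2.10, 15.9 and 2.92 in Primary3 and 46.3, 55.3 and 6.45 in Primary2. Without Primary3 replicate 3, peak_76658 was no longer called (3.52, edgeR adjusted p = 0.0589).

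The largest decreases against Primary3 were at peak_95287 (-4.34 ± 0.72), peak_88753 (-4.16 ± 0.60) and peak_90723 on chromosome 7 (89214916 to 89216516, -3.91 ± 0.63). At peak_90723 the Met1 lines held 31.7, 7.93 and 7.46 CPM and the Primary3 lines 221, 137 and 206, while the Primary2 lines (18.5, 12.6 and 60.5 CPM) overlapped Met1. Without Met1 replicate 1 its value was -4.64. Without the 2 shallowest libraries the values were -4.79 at peak_90723, -4.96 at peak_95287 and 4.83 at peak_59720.

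The metastasis lines of rounds 2 and 3 were set beside Met1 at the regions called between Met1 and the primary lines. Against the primary lines, the 6 later metastasis lines differed at 8080 of the tested regions (20.2%), 4491 (11.2%) higher and 3589 (8.98%) lower, a comparison with more lines than that of Met1. At the 1809 higher regions the median log2 fold change over primary lines was 1.82 in Met1 and 1.10 in later metastasis lines. At the 1975 lower regions it was -1.49 in Met1 and -0.59 in later lines. Both comparisons use the same primary lines, and the regions were picked for their value in Met1, so smaller values in later lines follow in part from the choice. By line, relative to the mean of the primary lines, the median at higher regions was 1.65, 2.01 and 1.63 in Met1, 1.37, 1.15 and 0.90 in Met2 and between 0.95 and 1.10 in Met3. At lower regions it was -1.37, -1.49 and -1.25 in Met1, -0.89, -0.51 and -0.50 in Met2 and -0.53, -0.55 and -0.42 in Met3. Met2 replicate 1 stood closest to Met1 of the later lines in both sets.

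The difference between later metastasis lines and Met1 was tested directly. Over all tested regions 3856 (9.65%) were called, 2331 (5.83%) higher and 1525 (3.82%) lower in later lines. Of the 1809 regions higher in Met1, 390 (21.6%) were lower in later lines and 27 (1.49%) were higher still. Of the 1975 regions lower in Met1, 785 (39.7%) were higher in later lines and 25 (1.27%) were lower still. The regions were chosen for their value in Met1, and this contrast uses the same Met1 lines. Shares above those of all tested regions therefore follow in part from the choice. In place of 21.6% and 39.7%, the shares were 16.9% and 39.6% without Met1 replicate 2, and 24.0% and 39.8% without the 2 shallowest libraries. The lower regions have stronger signal, which makes a difference easier to call, and the part of this in the larger share was not tested. In all, 1227 of the 3784 regions were called between Met1 and later lines, a count that was 359 and 676 without Met1 replicates 2 and 3 and 2007 without Met2 replicate 1.

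**Figure D5:**
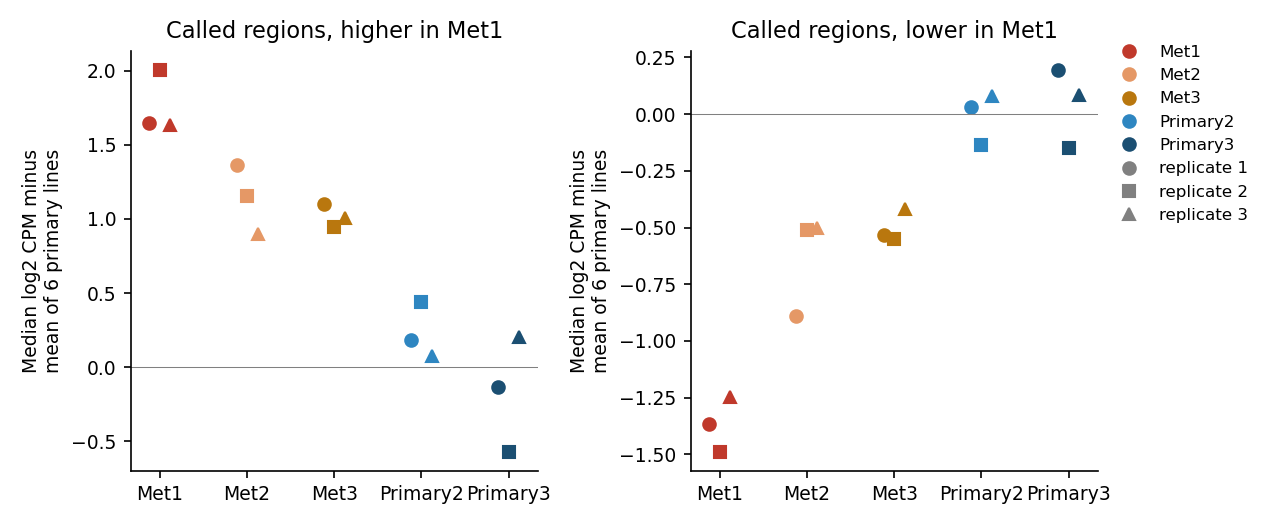
Median over the regions called higher (left) or lower (right) in Met1 of each line's log2 CPM minus the mean of the 6 primary lines (vertical axis), for all 15 lines by group (horizontal axis); symbols are replicates. The later metastasis lines lie between Met1 (1.63 to 2.01 and -1.49 to -1.25) and the primary lines.

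Whether the Met1 differences recur in later rounds can be described without shared libraries by pairing Met1 against Primary2 with Met3 against Primary3, or Met1 against Primary3 with Met2 against Primary2. Descent between these lines may still link them, and all contrasts came from a single fit. Regions are not replicates, so a correlation across all 39952 of them is a description. The log2 fold changes of the first pair correlated at r = 0.35 (Spearman's rho 0.31) and those of the second at 0.33 (0.29). Of the 1706 regions called against Primary2, 1339 (78.5%) had the same sign in Met3 against Primary3, where 60.2% of all tested regions did. Of the 2760 called against Primary3, 2093 (75.8%) had the same sign in Met2 against Primary2, where 59.7% of all regions did.

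By direction, in the first pair 82.5% of the increases had the same sign, where 52.6% of all tested regions were higher in Met3, and 76.4% of the decreases, where 47.4% of all were lower. In the second pair 81.0% of the increases had the same sign, where 51.6% of all were higher in Met2, and 72.1% of the decreases, where 48.4% of all were lower. Met3 against Primary3 had 4059 calls (10.2%), 2252 higher (5.64%) and 1807 lower (4.52%), and Met2 against Primary2 had 2480 (6.21%), 1375 higher (3.44%) and 1105 lower (2.77%). In the first pair 185 regions were called higher in both comparisons, which is 31.7% of the 583 higher in Met1 and 8.22% of the 2252 higher in Met3. Decreases shared 334 regions, 29.7% of 1123 and 18.5% of 1807. In the second pair 225 increases were shared (19.4% of 1157 and 16.4% of 1375) and 294 decreases (18.3% of 1603 and 26.6% of 1105). Regions called in opposite directions numbered 23 in the first pair and 32 in the second.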

How the data were processed

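The authors deposited whole-number read counts per region and library for 43020 regions of 200 to 6777 bp, whose names read as peaks of all samples. The build mm9 and the tools MACS2, Bowtie, bedtools, SAMtools and Picard are named, per the submitters' processing notes, without roles or versions. Per the labels' protocols, 50000 cells per library were treated with the TDE1 enzyme for 30 min and sequenced in paired-end mode (75 bases per read). Read shifting, duplicate removal and mitochondrial reads are not given in the sources used here.

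Groups and replicate numbers came from the titles. The deposited counts were filtered with filterByExpr (minimum count 10, minimum total 15), which left 39952 regions (92.9%), scaled by TMM, and fitted with edgeR 4.0.16 (limma 3.58.1, R 4.3.3) in a robust quasi-likelihood model of 5 group means over all 15 libraries. Benjamini-Hochberg adjusted p under 0.05 made a call. Standard errors came from the fold change and F statistic. Log2 CPM used a prior count of 2. Libraries held 285633 to 5916109 counts, so a region at the median held 4 counts in the shallowest and 75 in the deepest. Chromosome medians were compared with a 2-sided exact permutation test of scipy 1.17.1, adjusted over 20 chromosomes. Windows of 10 Mb needed 20 regions. Named regions were the 12 per direction with the largest change among calls with at least median signal and no overlap of lines, and 3 per direction for each primary group alone, with no overlap required against that group only. Scripts were checked on simulated counts.

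Alternatives were DESeq2 1.42.0, scaling by total counts, other filters (none, minimum count 30), only the groups compared, the replicate block, removed chromosome medians, a removed lowess trend (span 0.3), and left-out libraries. The members and lists were chosen with earlier results of these data known. Further tools were Python 3.11.15, numpy 2.4.6, pandas 2.3.3 and matplotlib 3.10.9.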

Additional observations from a re-analysis of the deposited data

Results flagged for a closer look

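Among 44 sets of the 6 primary lines (20 chromosome medians and 24 named regions), 2 held a line far from the others, where chance gives about 1 in 20, or 2.2 sets. On chromosome 7, Primary2 replicate 2 stood at -0.17 on the log2 scale and the other primary lines between 0.02 and 0.14. At peak_43984, Primary3 replicate 2 stood at a log2 CPM of -0.10 and the others between 2.06 and 3.18, a value that rests on 0 counts in the library of 285633.

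Later metastasis lines differed from Met1 at 1227 of the 3784 called regions (edgeR contrast of Met2 and Met3 against Met1), where 9.65% of all tested regions did. Of the named increases, the log2 fold change of later lines over Met1 was -2.11 at peak_82029, -2.09 at peak_6266, -1.79 at peak_65892, -1.56 at peak_84122 and -1.15 at peak_6576. Of the named decreases, it was 4.33 at peak_18414, 3.56 at peak_78278, 3.44 at peak_88753, 2.88 at peak_95287, 2.80 at peak_98753, 2.77 at peak_98738, 2.70 at peak_52687, 2.67 at peak_92221, 2.15 at peak_90673 and 1.98 at peak_38116. These regions were chosen for their value in Met1, which the contrast shares.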

How the results depend on the processing

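The count of regions for Met1 against both primary groups was between 3123 and 4632 in 9 other settings, and with 1 line left out it was between 1162 and 3955. Against Primary2 the limits were 1353 and 2519, and 403 and 1636 with 1 line left out. Against Primary3 they were 2124 and 3701, and 704 and 2653. At the called regions, later metastasis lines differed from Met1 at 974 to 1449 regions, and at 359 to 2007 with 1 line left out. Named regions were recomputed 612 times over all settings, with 611 values of the same sign still past the threshold and 1 of the same sign no longer past it. Selection on these same data favours such an outcome. The number of chromosomes past the test was 11 or 12 in 3 alternatives. It was 0 without the 2 shallowest libraries and 0 to 0 when a line was left out, since the smallest p is then 0.0952 without both, 0.0714 without a Met1 line or 0.0357 without a primary line. The 12 chromosomes kept their direction in each of these settings. The correlation was 0.28 in the pair of Met1 against Primary2 without the 2 shallowest libraries, and 0.30 in the other pair with chromosome medians removed. With 1 line left out the values were 0.28 to 0.39 and 0.23 to 0.36. Leaving out lines for the correlations and for the later lines, and the shares by signal quartile under other settings, were chosen after seeing the data. The cause was not tested.

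Same-numbered lines did not deviate together (r over 0.1 in 1 of 9 pairs, from -0.21 to 0.16, with 2 of 9 best with their own number). The main fit did not pair lines by number. So few correlations cannot show whether same-numbered lines are related. With the replicate block the counts were 3123, 1353 and 2124, and 1009 for the later lines. Depth limits weak regions most, above all in Primary3 replicate 2.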
